A study of Mus musculus with 10 samples.

Results

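GABA-A receptors are ligand-gated chloride channels, each built from 5 subunits around a pore, and they carry most fast inhibition in the brain. Alpha and beta subunits together form the binding site for GABA, a gamma subunit anchors the receptor at synapses and lends it sensitivity to benzodiazepines, and a delta subunit takes the place of gamma in receptors outside synapses that respond to low ambient GABA. In the thalamus, alpha4 and delta form receptors that carry tonic inhibition of relay neurons. The RNA of 8 subunit genes was followed here: the alpha subunits Gabra2, Gabra3, Gabra4 and Gabra5, the beta subunit Gabrb1, the gamma subunits Gabrg1 and Gabrg3, and the delta subunit Gabrd. They were found by symbol and are 8 of the 33502 genes in the deposited matrix; the choice of these genes was made with earlier results of these data known.

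The tissue was punches of the paraventricular thalamus (PVT) with neighbouring regions, taken at an age of 12 weeks from C57BL/6J mice, and RNA of single nuclei was counted as unique molecular identifiers (UMIs) with 10x Genomics 3' chemistry. No treatment or transgene is named for any of the 10 libraries, which are titled as biological replicates. The methods describe a pool of 4 mice per sample for 4 samples and do not name the female libraries. The titles of 6 libraries (F1 to F6) carry the word female, the titles of the other 4 (M1 to M4) give no sex, and the deposited metadata mark their nuclei as male. The 20503 nuclei carry the cell type names that were deposited with them: 10410 neurons, 5302 astrocytes, 2462 oligodendrocytes, 993 microglia, 473 oligodendrocyte precursor cells (OPCs), 469 ependymal cells, 215 endothelial cells and 179 fibroblasts. Libraries held 875 to 7213 nuclei and 5119927 to 55956635 UMIs, and neurons had a median of 13580 UMIs in M1 to M4 and 6843 in F1 to F6, so that library set, sex and depth cannot be told apart. All 26 cell type markers chosen (for example Aqp4 for astrocytes, Mog for oligodendrocytes, Pdgfra for OPCs and Rbfox3 for neurons) had their highest mean level in the cell type they mark. The study assigned the types by some of these same genes, Pdgfra and Rbfox3 among them, after clustering on this expression. The result is therefore no independent check of the cell type names. Of 20457 distinct barcodes, 46 occurred in 2 or more libraries.

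The subunit genes lie in clusters on the mouse genome (GENCODE vM21, GRCm38). Gabrg1 (chr5:70751047-70842617, minus strand), Gabra2 (chr5:70957597-71095849, minus strand), Gabra4 (chr5:71569749-71658308, minus strand) and Gabrb1 (chr5:71658113-72149037, plus strand) follow each other on chromosome 5. Gabrg3 (chr7:56716465-57387188) and Gabra5 (chr7:57407672-57510059) are neighbours on the minus strand of chromosome 7, Gabra3 is at chrX:72432681-72656848 (minus strand) and Gabrd at chr4:155384980-155398112 (minus strand). The starts of Gabra4 and Gabrb1, on opposite strands, overlap over 196 bases. The sources used here do not say whether the counting used strand, so values of subunits that overlap a gene on the opposite strand, Gabra5 over most of its length among them, are uncertain to the extent that reads of both could be counted together.

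The promoters of Gabra2 and Gabrg1 are shown because these neighbours on the same strand of chromosome 5 gave different results: Gabrg1 was called lower in neurons with the habenula marker Nwd2 and was higher in astrocytes than in neurons, and neither held for Gabra2. Each sequence is the 250 bases before the transcription start in RefSeq (GRCm38.p6, minus strand, read 5' to 3'), chr5:71095850-71096099 for Gabra2 and chr5:70842618-70842867 for Gabrg1, and the capitals mark CG dinucleotides. Neither window lies in an annotated exon.
Gabra2: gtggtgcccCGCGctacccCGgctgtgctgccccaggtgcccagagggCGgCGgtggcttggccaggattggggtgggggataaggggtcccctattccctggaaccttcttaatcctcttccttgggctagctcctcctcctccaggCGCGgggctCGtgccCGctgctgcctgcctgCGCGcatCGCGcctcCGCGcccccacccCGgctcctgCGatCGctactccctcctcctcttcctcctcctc
Gabrg1: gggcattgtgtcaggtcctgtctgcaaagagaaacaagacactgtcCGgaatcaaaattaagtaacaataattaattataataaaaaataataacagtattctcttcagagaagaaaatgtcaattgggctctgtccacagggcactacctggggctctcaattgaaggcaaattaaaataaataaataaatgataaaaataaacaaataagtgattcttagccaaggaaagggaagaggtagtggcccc
The Gabra2 window held 18 CG dinucleotides and 70.0% G or C, and the Gabrg1 window held 1 and 35.6%. Over 32851 promoter windows of the same length the medians were 6 CG dinucleotides and 52.4% G or C, and 21.7% of the windows had at least as many CG dinucleotides as Gabra2. The GC box GGGCGG, searched on both strands, was found in the Gabra2 window and in 32.7% of all windows, and TATAAA was found in neither of the 2 windows and in 12.4% of all. Of the 8 subunit genes 7 had a window. The Gabra4 window held 12 CG dinucleotides, the Gabrb1 windows 18 and 6, and those of Gabrg3 and Gabra5 9 each. The Gabra3 windows held 0. Each of these other subunits was, like Gabrg1, called lower in neurons with the marker Nwd2. A link between the windows and the levels was not tested.

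To ask in which cells of the dissected tissue each subunit was measured, UMIs were summed per library and cell type and every type was compared with the mean of the other types by edgeR's quasi-likelihood test, with the library as a block. Levels are CPM (the UMIs of a gene scaled to a common total per sum) after TMM scaling, given as mean ± SD over libraries, and a gene was called at an adjusted p (Benjamini-Hochberg over all genes tested) under 0.05 and a log2 fold change beyond 0.5, the thresholds of the study. TMM scaling was done apart for cell types, regional groups, subtype groups and library sets. CPM can be compared within each of these families of sums but not between them. A sum needed at least 10 nuclei, which left 7 libraries for endothelial cells, 8 for fibroblasts, 9 for OPCs and for ependymal cells, and 10 for the remaining types. The cell types were named by the authors after clustering on expression, in which the subunits may have taken part, so the calls describe these types and are no independent test of them. In bulk sums of this kind, fewer expressing nuclei and less RNA per nucleus cannot be told apart.

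Neurons had the highest mean level of 6 subunits, and astrocytes had the highest level of the other 2, Gabrb1 and Gabrg1. All 7 subunits that passed the count filter (Gabrd did not) were called higher in neurons, beside 34.8% of the 9842 genes tested, and their median log2 fold change was 2.80 against 0.16 over all genes. All 7 were called lower in oligodendrocytes (26.2% of all genes), 5 in microglia (29%), 3 in endothelial cells (22.9%) and 1, Gabrb1, in fibroblasts (11.5%). In astrocytes 3 were called higher (21.5%) and 2 lower (19.7%), in OPCs 3 higher (20.1%), and in ependymal cells 1 higher (26.7%) and 1 lower (19.2%). Over the 8 types this made 14 calls of higher level, 19 of lower level and 23 comparisons without a call. The fold changes average the other types on the log scale, where types near 0 weigh more than in a plain mean: Gabra2 was called higher in astrocytes (0.79, SE 0.23) although its CPM was below the plain mean of the other types in 6 of 10 libraries. The calls of lower level in glia depended on which nuclei were included. Leaving out the 6257 of 10093 non-neuronal nuclei with a UMI of a neuronal marker also left 7924 genes to test and moved the median log2 fold change of all genes in neurons from 0.16 to 0.49. In that setting 2 of the 7 subunits were still called lower in oligodendrocytes, and the fold changes of Gabra2, Gabra4 and Gabra5 there turned positive without a call. Among nuclei with under 1% mitochondrial UMIs 18 calls were made in place of 33, and the calls of Gabra2 in astrocytes (0.45, adjusted p = 0.32) and of Gabrb1 in fibroblasts (−1.35, adjusted p = 0.56 by edgeR) were lost. The Gabrb1 call in fibroblasts was also lost without any 1 of M2, M3, F1, F2, F3 or F4, at adjusted p from 0.051 to 0.11. Of the 49 pairs of neighbours in the order of levels, 10 differed at an adjusted p under 0.05.

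**Figure D1:**
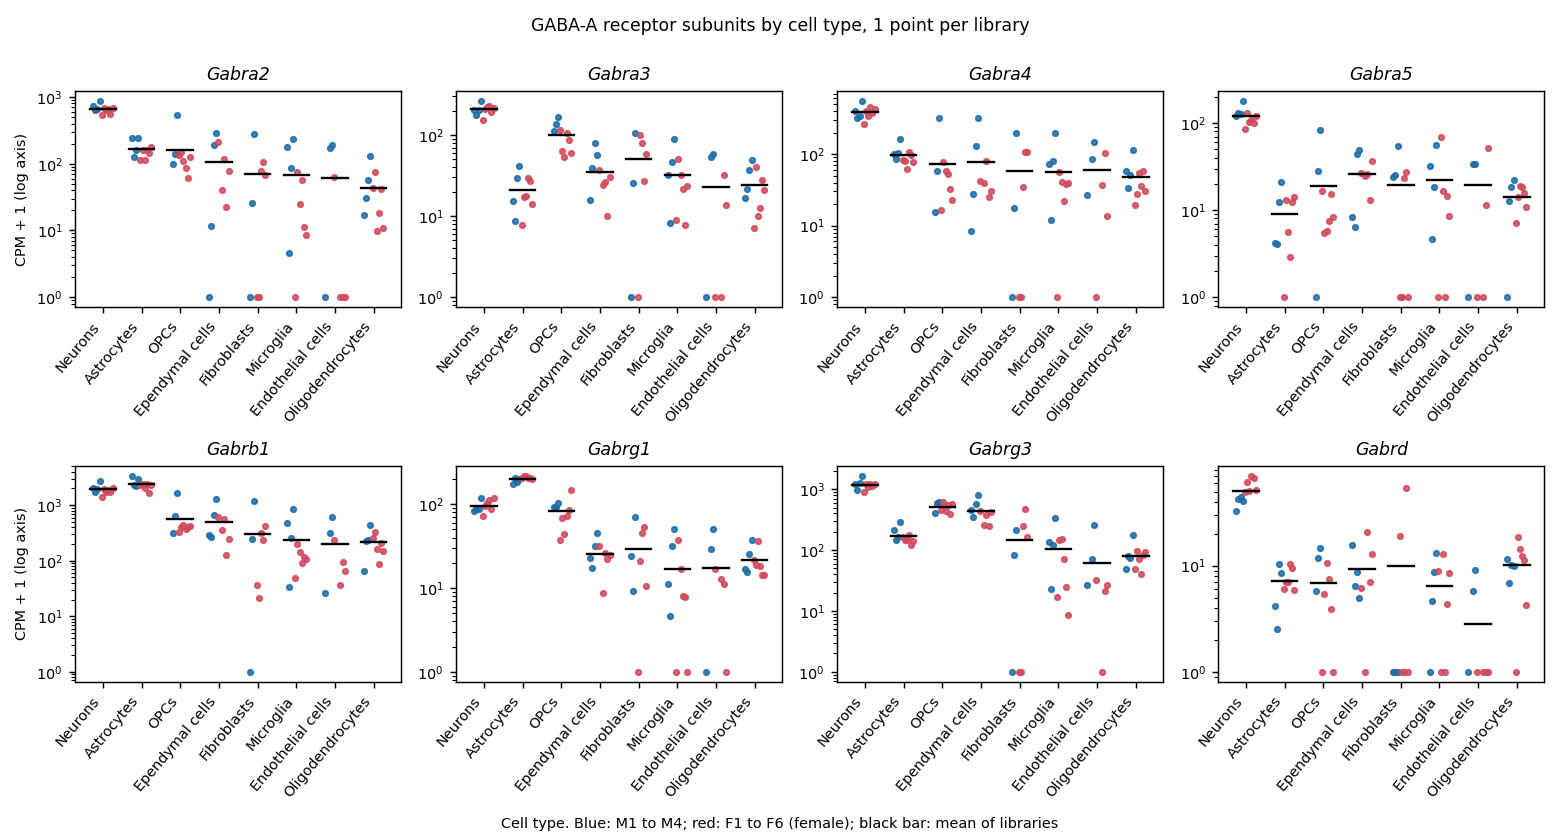
Level of each subunit gene in 8 cell types. Each point is 1 library (CPM plus 1, log axis; blue for M1 to M4, red for F1 to F6) and the bar is the mean of the libraries; Gabrb1 and Gabrg1 are highest in astrocytes and the other 6 subunits in neurons.

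Among the alpha subunits, Gabra2, which encodes a subunit found at many forebrain synapses, ranged in neurons from 530.5 CPM over a median of 662.3 to 871.2 CPM. In astrocytes it ranged from 113.0 over 158.7 to 241.7 CPM, so that every neuronal value was above every astrocyte value. The log2 fold change of neurons over the mean of the other types was 3.17 (SE 0.19, adjusted p = 7.5e-25 by edgeR). Gabra3 ranged in neurons from 150.3 over 205.5 to 261.9 CPM and in OPCs from 52.4 over 103.8 to 164.8 CPM. OPCs, the dividing glial cells that give rise to oligodendrocytes, had the next highest Gabra3 level after neurons. They were called higher than the mean of the other types (log2 fold change 1.31, SE 0.20) while astrocytes were called lower (−1.29, SE 0.19). Gabra4 was at 387.9 ± 80.7 CPM in neurons and at 94.8 ± 26.9 CPM in astrocytes, the next in order, and Gabra5 at 119.3 ± 25.4 CPM in neurons and at 25.0 ± 15.1 CPM in ependymal cells. Both were higher in neurons than in each other type in 10 of 10 libraries, and the neighbours below neurons in the order of either gene did not differ past the threshold.

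Gabrb1, which encodes the beta1 subunit, ranged in astrocytes from 1656.0 over a median of 2355.6 to 3406.3 CPM and in neurons from 1431.4 over 1918.6 to 2728.3 CPM. The 2 ranges overlapped, and astrocytes were above neurons in 9 of 10 libraries. The difference between astrocytes and neurons did not pass the threshold (log2 fold change 0.34, SE 0.28, adjusted p = 0.28 by edgeR). OPCs, the next in order, ranged from 309.0 over 409.8 to 1682.8 CPM (n = 9), where the highest value, in M4, lay inside the astrocyte and neuronal ranges and the next highest was 640.6 CPM. Neurons were above OPCs by 2.03 on the log2 scale (SE 0.32, adjusted p = 8.7e-08 by edgeR). Against the mean of the other types the log2 fold change was 2.83 (SE 0.19) for astrocytes and 2.45 (SE 0.19) for neurons. After every nucleus had been thinned to 2000 UMIs, a Gabrb1 UMI was found in 95.0% ± 2.5 of astrocytes, 84.2% ± 6.7 of neurons, 21.9% ± 12.2 of oligodendrocytes and 20.2% ± 16.0 of microglia. The latter 2 are given for comparison, and the part of free RNA in them was not tested. Thinning left out 994 astrocytes, 197 neurons, 847 oligodendrocytes and 430 microglia with fewer UMIs, and without it the shares were 94.2% ± 3.7 of astrocytes and 92.2% ± 5.2 of neurons.

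Gabrg1, whose product is a gamma subunit known from astrocytes and a few neuronal groups, ranged in astrocytes from 171.9 over 205.5 to 218.9 CPM. In neurons it ranged from 71.7 over 90.2 to 117.1 CPM, so that the lowest astrocyte value was above the highest neuronal value. The log2 fold change of astrocytes over neurons was 1.09 (SE 0.13, adjusted p = 2.2e-11 by edgeR), with astrocytes higher in 10 of 10 libraries. OPCs had 81.6 ± 33.1 CPM (n = 9) and did not differ from neurons past the threshold (log2 fold change of neurons over OPCs 0.26, SE 0.18, adjusted p = 0.22 by edgeR). Thinned to 2000 UMIs, 29.0% ± 3.0 of astrocytes, 12.2% ± 2.4 of neurons, 2.8% ± 3.3 of microglia and 2.7% ± 2.3 of oligodendrocytes had a Gabrg1 UMI. Without thinning the shares were 37.8% ± 5.9 of astrocytes and 43.9% ± 8.3 of neurons, at median depths of 3006.5 and 11157 UMIs per nucleus.

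Gabrg3, the gamma3 subunit gene, ranged in neurons from 889.4 over 1221.3 to 1671.5 CPM. OPCs ranged from 393.7 over 551.2 to 618.2 CPM and ependymal cells, the ciliated lining of the ventricle, from 248.6 over 423.4 to 809.8 CPM. No OPC or ependymal value reached the neuronal range, and the OPC and ependymal ranges overlapped. Both types were called higher than the mean of the other types, with log2 fold changes of 1.58 (SE 0.19) in OPCs and 1.23 (SE 0.20) in ependymal cells, and both calls were lost among nuclei with under 1% mitochondrial UMIs (1.22, adjusted p = 0.11, and 1.19, adjusted p = 0.06, by edgeR). Their difference from each other did not pass the threshold (0.30, SE 0.27, adjusted p = 0.35 by edgeR), while ependymal cells were above astrocytes, the next in order, by 1.34 (SE 0.26). A Gabrg3 UMI was found in 54.9% ± 7.5 of OPCs, 47.0% ± 15.1 of ependymal cells and 10.1% ± 8.1 of microglia after thinning to 2000 UMIs, and in 65.8% ± 10.8, 51.1% ± 16.2 and 10.9% ± 8.0 without it. Gabrd ranged in neurons from 32.0 over 48.9 to 69.6 CPM and had means of 1.8 to 9.1 CPM in the other types, where its sums held 2 to 107 UMIs over all libraries; neurons were highest in 10 of 10 libraries.

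UMIs of neuronal marker genes were counted in every non-neuronal cell type, and whether they came from neurons was not tested. The neuronal markers Rbfox3, Snap25 and Syt1 reached 5.46% to 11.3% of their neuronal level in astrocytes, 12.0% to 29.1% in OPCs, 13.7% to 21.5% in ependymal cells, 9.64% to 16.0% in microglia and 10.3% to 14.7% in oligodendrocytes. Subunits at a higher percent of their neuronal level than all 3 markers were 6 in astrocytes, 3 in OPCs (Gabrg1 at 85.3%, Gabra3 at 48.1%, Gabrg3 at 43.2%) and 3 in ependymal cells (Gabrg3 at 36.4%, Gabrg1 at 25.8%, Gabrb1 at 25.6%). In astrocytes these were Gabrg1 at 210% and Gabrb1 at 125%, followed by Gabra2 at 24.6%, Gabra4 at 24.4%, Gabrg3 at 14.2% and Gabrd at 12.3%. In microglia and oligodendrocytes 2 subunits each were above all 3 markers, in endothelial cells 3 and in fibroblasts 4. The share of all genes above the 3 markers was not computed, so these counts cannot be set against it. Some rest on few UMIs over all libraries, Gabrd in fibroblasts on 3 and Gabra5 and Gabrg1 in endothelial cells on 16 and 15. Gabrb1 in fibroblasts, at 15.96%, was barely above the highest marker, at 15.66%. The part of free neuronal RNA in these glial levels was not tested beyond these values.

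**Figure D2:**
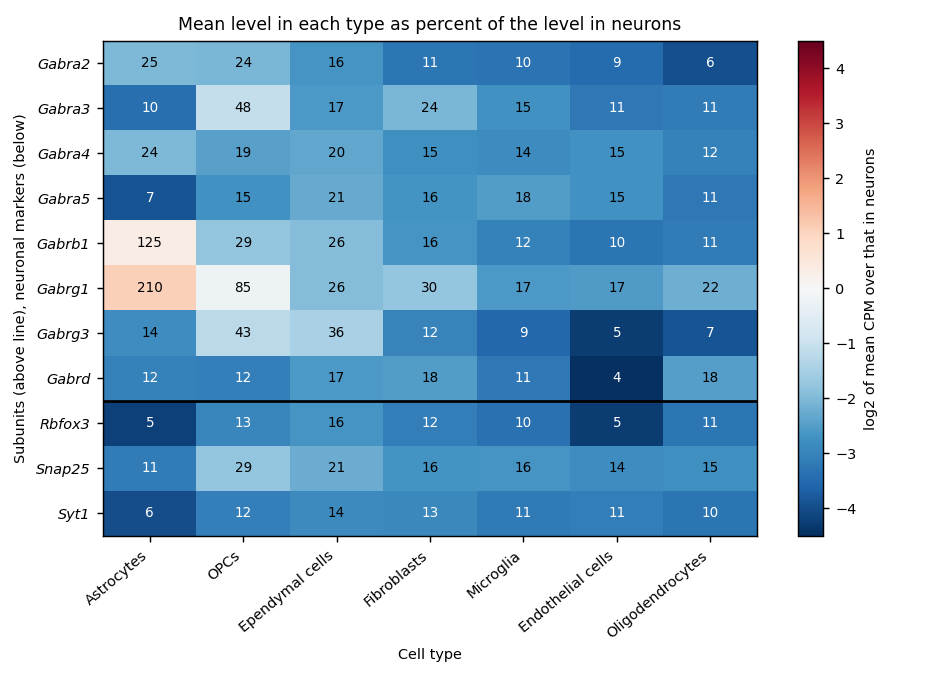
Mean level in 7 non-neuronal cell types as a percent of the mean level in neurons, for the 8 subunits (above the line) and 3 neuronal markers (below it); color gives the log2 ratio. Gabrg1 at 210% and Gabrb1 at 125% in astrocytes are the cells above 100%.

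Other genes of the GABA system were called in neurons, astrocytes and OPCs. Gabrb2, a further GABA-A subunit gene, was called higher in neurons and lower in astrocytes. The GABA transporter Slc6a11 (log2 fold change 5.10, SE 0.15) and Abat, the enzyme that breaks down GABA (1.87, SE 0.10), were called higher in astrocytes. The GABA-B receptor subunits Gabbr2 (2.66, SE 0.16) and Gabbr1 (1.17, SE 0.11) were called higher in astrocytes, and 3 more genes of that list, the auxiliary subunits Kctd8, Kctd12 and Kctd16, lower. In OPCs, 5 of 11 tested genes of the inhibitory postsynapse were called higher, led by Shisa7 (3.58, SE 0.24) and Slitrk3 (2.76, SE 0.22), and 1 lower, beside 20.1% of all genes called higher and 13.3% called lower.

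To compare neurons of the PVT with those of the regions around it, neurons with more than 1000 genes (10307 nuclei) were divided by 4 marker genes alone: C1ql3 for the PVT, Adarb2 for the mediodorsal thalamus, Gad2 for GABA-producing neurons and Nwd2 for the habenula. A nucleus positive for exactly 1 marker entered that marker's group, which gave 3579 C1ql3, 1314 Adarb2, 182 Gad2 and 699 Nwd2 nuclei; 313 nuclei were positive for several markers and 4220 for none. No subunit was used to set these groups. Markers outside the gate followed the labels: Tac2 was at 973.8 CPM in the Nwd2 group against 3.7 CPM in the C1ql3 group, and Pou4f1 at 91.5 against 0.8 CPM. The Gad2 group had Slc32a1, the vesicular GABA transporter, at 61.8 CPM against at most 1.2 CPM elsewhere, but it also kept Slc17a6, a marker of glutamatergic neurons, at 287.0 CPM, and it rests on 5 libraries with 10 to 93 nuclei each. Gad2 values are therefore given by library and carry little weight in the order.

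Neurons with the habenula marker had far less RNA of all but 1 subunit: 7 of 8 were called lower in the Nwd2 group, beside 21% of the 12263 genes tested. The median log2 fold change of the 8 there was −3.16 against 0.06 over all genes. In the C1ql3 group 8 of 8 were called higher (12.8% of all genes), in the Adarb2 group 6 of 8 (15.1%) and in the Gad2 group 5 of 8 (7.65%). These comparisons share their samples: each group was compared with the log-scale mean of the remaining 3, and the low Nwd2 values entered the mean for C1ql3, Adarb2 and Gad2. For Gabrd and Gabrg3 the C1ql3 group was called higher (log2 fold changes 0.64 and 0.64) although its CPM was below the plain mean of the other groups in 10 of 10 and in 9 of 10 libraries. The Gabrg3 call in the C1ql3 group was lost with DESeq2 (0.55, adjusted p = 0.089), and with the marker rule of 1 UMI of exactly 1 marker the subunits had 16 calls over the 4 groups in place of 26. All 5 Gad2 calls were lost with that rule and 4 of them among the female libraries alone, and the fold change of Gabra4, without a call in the Gad2 group (0.39), was a call of lower level with the authors' clusters (−0.64). The direct comparisons between pairs of groups are free of that effect and are given next.

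**Figure D3:**
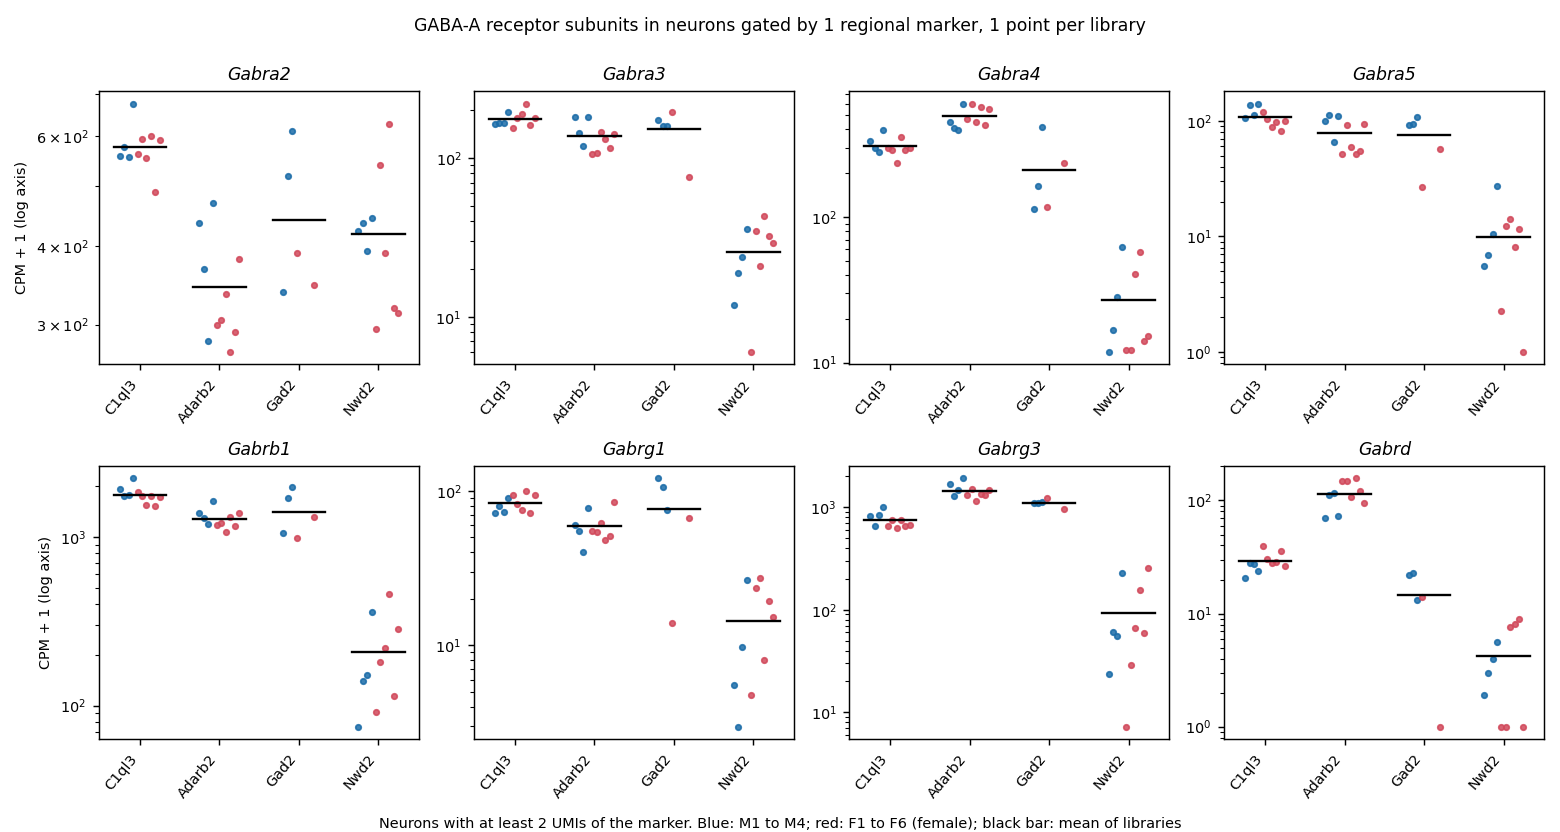
Level of each subunit gene in neurons gated by 1 of 4 regional markers. Each point is 1 library (CPM plus 1, log axis; blue for M1 to M4, red for F1 to F6) and the bar is the mean; in the Nwd2 group 7 subunits lie below the range of the C1ql3 and Adarb2 groups and Gabra2 does not.

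In the Nwd2 group, Gabrb1 ranged from 74.0 over a median of 165.4 to 457.3 CPM, and in the C1ql3 group from 1527.2 over 1760.1 to 2233.0 CPM. The mean of the Nwd2 group was 11.5% of that of the C1ql3 group, and the log2 fold change of C1ql3 over Nwd2 was 3.36 (SE 0.17, adjusted p = 2.3e-19 by edgeR). Gabra4 ranged from 10.8 over 14.99 to 61.1 CPM in the Nwd2 group, 8.52% of the C1ql3 mean. Gabrg3 ranged from 6.2 over 58.5 to 255.0 CPM, 12.5% of the C1ql3 mean. Gabra5 was at 8.32%, Gabrd at 11.4%, Gabra3 at 14.0% and Gabrg1 at 16.2% of the C1ql3 mean. For these 7 subunits the highest Nwd2 library was below the lowest C1ql3 library and the lowest Adarb2 library. Thinned to 2000 UMIs, 20.9% ± 7.3 of Nwd2 nuclei and 94.9% ± 1.9 of C1ql3 nuclei had a Gabrb1 UMI, the former at the level of the 20.2% and 21.9% in microglia and oligodendrocytes. Without thinning the shares were 42.8% ± 9.8 and 99.8% ± 0.3. The part of free RNA in these shares was not tested.

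Gabra2 was the exception. It ranged from 294.6 over a median of 407.3 to 626.1 CPM in the Nwd2 group, from 487.4 over 569.1 to 675.9 CPM in the C1ql3 group and from 270.3 over 319.3 to 468.3 CPM in the Adarb2 group, so that the Nwd2 range overlapped both. In the Nwd2 group it changed by −0.13 on the log2 scale relative to the remaining groups (SE 0.09, adjusted p = 0.24 by edgeR). The Nwd2 mean was 72.5% of the C1ql3 mean, lower in 9 of 10 libraries (log2 fold change of C1ql3 over Nwd2 0.49, SE 0.10, adjusted p = 8.6e-05 by edgeR), and it was 0.26 above the Adarb2 group on the log2 scale (SE 0.10, adjusted p = 0.029 by edgeR). A Gabra2 UMI was found in 50.2% ± 8.2 of Nwd2, 64.8% ± 4.8 of C1ql3 and 37.0% ± 5.9 of Adarb2 nuclei after thinning to 2000 UMIs, against 8.5% ± 11.1 of microglia; without thinning the shares were 79.8% ± 8.4, 94.7% ± 4.3, 81.4% ± 8.7 and 10.1% ± 11.6. Median depth was 7754 UMIs in Nwd2, 12203 in C1ql3 and 13123.5 in Adarb2 nuclei. The Nwd2 group made up 3.20% to 20.1% of neurons in M1 to M4 and 2.33% to 16.3% in F1 to F6.

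Other genes of GABA signalling were called in either direction in the Nwd2 group, where 21.5% of all genes were called higher and 21% lower. The further GABA-A subunit gene Gabrb2 was called lower (log2 fold change −3.39, SE 0.18). The potassium-chloride cotransporter Slc12a5 (KCC2), which keeps chloride low in mature neurons, was called lower (−2.09, SE 0.14) and Slc12a2 was not called. Of 4 tested GABA-B genes 3 were called higher, the receptor subunits Gabbr1 (2.16, SE 0.07) and Gabbr2 (1.53, SE 0.09) and the auxiliary subunit Kctd8 (3.26, SE 0.09), and the auxiliary subunit Kctd16 was called lower (−3.61, SE 0.14). Of 11 tested genes of the inhibitory postsynapse 4 were called higher and 2 lower. The 4 of largest change were Plcl1 (4.04, SE 0.13), Insyn1 (2.92, SE 0.17), Iqsec3 (−2.18, SE 0.13) and Gabarap (1.01, SE 0.17), and the scaffold gene Gphn was not called. Insyn1 had a mean of 69.4 CPM in the Nwd2 sums of M1 to M4 and 0 UMIs in those of F1 to F6, so its value rests on M1 to M4. Of the genes of GABA uptake and breakdown, Abat was called lower (−0.68, SE 0.09) and Slc6a11 was not called.

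**Figure D4:**
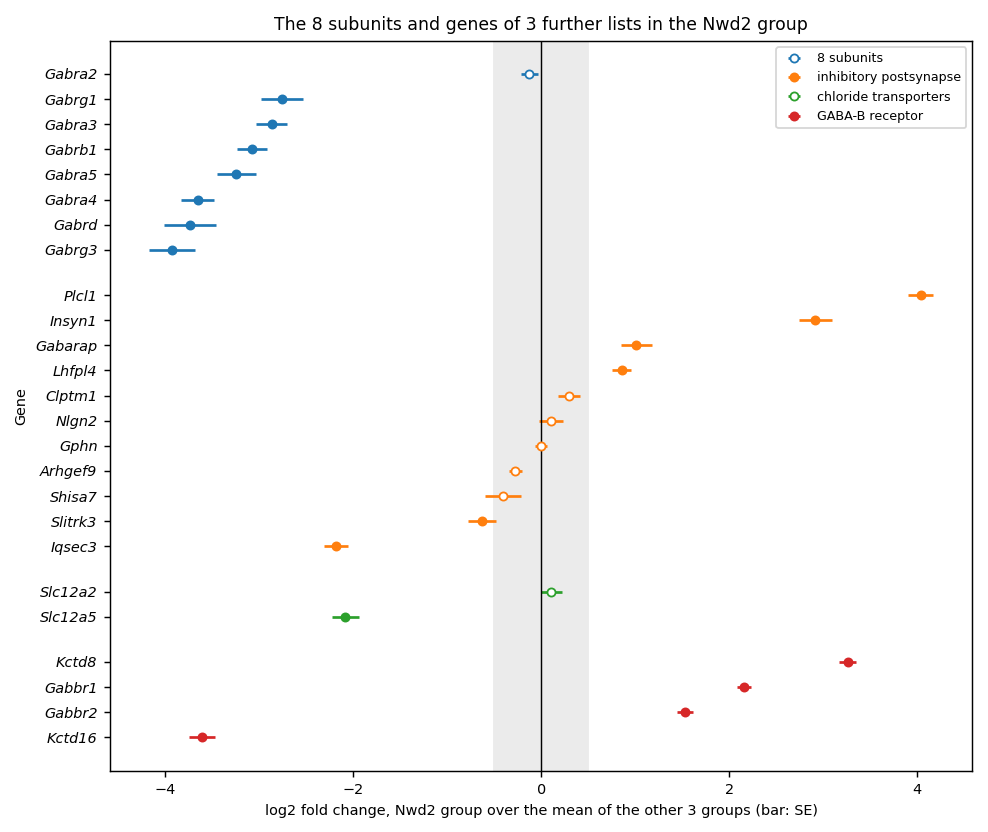
Log2 fold change of the Nwd2 group over the mean of the other 3 neuron groups (x axis; bars are SE, grey band is 0.5 either way) for the 8 subunits and the tested genes of the inhibitory postsynapse, chloride transporter and GABA-B lists, ordered within each list. Filled points were called and open points were not; 7 of 8 subunits are called lower and 3 of 4 GABA-B genes higher.

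Between the C1ql3 and Adarb2 groups, PVT and mediodorsal thalamus by their markers, the subunits split. Gabrd, the delta subunit gene, ranged in the Adarb2 group from 68.8 over a median of 113.5 to 156.3 CPM and in the C1ql3 group from 19.5 over 27.1 to 38.7 CPM. The ranges did not overlap, and the log2 fold change of C1ql3 over Adarb2 was −1.97 (SE 0.10, adjusted p = 4.7e-19 by edgeR). A Gabrd UMI was found in 18.5% ± 6.2 of Adarb2, 5.8% ± 2.3 of C1ql3 and 0.9% ± 1.4 of Nwd2 nuclei after thinning to 2000 UMIs, and in 0.7% ± 1.3 of microglia. Without thinning the shares were 57.8% ± 8.8, 24.1% ± 6.8, 2.2% ± 1.8 and 1.4% ± 1.0. Gabra4, whose product pairs with delta in thalamic relay neurons, ranged from 395.4 over 460.4 to 599.7 CPM in the Adarb2 group and from 233.1 over 295.9 to 391.7 CPM in the C1ql3 group, again without overlap (−0.67, SE 0.12, adjusted p = 7.1e-06 by edgeR). Gabrg3 ranged from 1137.8 over 1405.5 to 1915.5 CPM in the Adarb2 group and from 621.3 over 709.7 to 1003.9 CPM in the C1ql3 group (−0.96, SE 0.19, adjusted p = 5.9e-05 by edgeR). All 3 were higher in the Adarb2 group in 10 of 10 libraries.

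The other 5 subunits were higher in the C1ql3 group. Gabra2 had the largest of these differences (0.75, SE 0.10, adjusted p = 2.4e-08 by edgeR), with no Adarb2 value reaching the lowest C1ql3 value of 487.4 CPM. Gabrg1 (0.50, SE 0.13), Gabra5 (0.49, SE 0.11), Gabrb1 (0.48, SE 0.14) and Gabra3 (0.36, SE 0.10) followed, with adjusted p from 0.00035 to 0.0054 by edgeR. C1ql3 was higher in 10 of 10 libraries for Gabra2, Gabra5, Gabrb1 and Gabrg1 and in 9 of 10 for Gabra3. The further GABA-A gene Gabrb2 was at 634.6 ± 95.3 CPM in the Adarb2 group and 324.6 ± 50.7 CPM in the C1ql3 group, a pair that was not tested. Of the 24 pairs of neighbours in the order of levels over the 4 groups, 12 differed at an adjusted p under 0.05.

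In the Gad2 group, Gabrg3 was at 1093.5 CPM in M2, 1109.1 in M3, 1112.8 in M4, 1218.3 in F1 and 952.7 in F5, of which F1 lay in the Adarb2 range, F5 in the C1ql3 range and the other 3 between both. Neither difference passed the threshold (Adarb2 over Gad2 0.42, SE 0.27, adjusted p = 0.28; C1ql3 over Gad2 −0.54, SE 0.26, adjusted p = 0.31, both by edgeR). Gabrd was at 21.1 CPM in M2, 21.9 in M3, 12.3 in M4, 13.0 in F1 and 0 in F5, where the sums of F1 and F5 held 1 and 0 Gabrd UMIs. The log2 fold change of Adarb2 over Gad2 was 2.56 (SE 0.23, adjusted p = 3.0e-11 by edgeR). Gabra4 was at 112.5, 163.4, 416.1, 116.6 and 233.5 CPM in the same order of libraries and was likewise lower than in the Adarb2 group (1.27, SE 0.19, adjusted p = 1.8e-06 by edgeR), with 1 library, M4, inside the Adarb2 range. The adjusted p against the C1ql3 group was over 0.05 for all 8 subunits.

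The authors' own clusters of neurons place the marker groups among the nuclei that no marker gate held. Clustering used expression of all variable genes, so the levels are a description without a test, and the clusters are called N1 to N8 as deposited. N6, the cluster of highest Nwd2 level, had Gabra2 at 449.6 ± 122.5 CPM and Gabrb1 at 200.6 CPM (mean of libraries), both near the values of the Nwd2 gate, which come from other sums with their own scaling. N3, the cluster of highest Adarb2 level, had Gabrd at 128.1 ± 36.3 CPM, N8 had 62.5 ± 25.3 CPM, N1 had 36.3 CPM and N5, the cluster with the highest Gad2 level, 8.4 CPM (means of libraries). N7 and N8, which were set apart by none of the 4 markers, had Gabrg3 at 1560.3 and 1202.3 CPM, against 783.6 CPM in N1.

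To look within the PVT, the C1ql3 group was divided in the same way by the subtype markers Col12a1, Cadps2 and Npsr1. The groups held 578 Col12a1, 443 Cadps2 and 105 Npsr1 nuclei, 2356 nuclei were positive for none of the 3 and formed the remaining group, and 97 were positive for several. Other markers of the study's subtypes lay where their labels put them, for example Pde3a at 35.6 CPM in the Col12a1 group against 1.6 CPM in the Cadps2 group, and Insrr at 44.8 CPM in the Cadps2 group against 1.6 CPM in the Col12a1 group. Only M3 and M4 had at least 10 Npsr1 nuclei (30 and 32). Of 32 comparisons of 8 subunits in 4 groups, 2 were called higher and 3 lower. Of all genes tested, 2.96% to 14.6% were called in either direction per subtype group and 10.5% to 42.5% per regional group.

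Gabrg3 ranged in the Col12a1 group from 766.8 over a median of 937.1 to 1256.3 CPM and in the Cadps2 group from 319.5 over 500.0 to 773.5 CPM. The ranges met only at their ends, and the Col12a1 value was above the Cadps2 value in 10 of 10 libraries. The log2 fold change between the 2 was 0.98 (SE 0.07, adjusted p = 7.5e-21 by edgeR), and the Cadps2 group was called lower than the mean of the other groups (−0.84, SE 0.06, adjusted p = 1.1e-18 by edgeR), beside 6.88% of the 10911 genes tested. Gabra3 followed the same order, from 187.1 over 232.9 to 336.9 CPM in the Col12a1 group and from 84.7 over 113.1 to 186.1 CPM in the Cadps2 group, without overlap. Its log2 fold change between the 2 was 0.95 (SE 0.09, adjusted p = 1.0e-15 by edgeR); against the mean of the other groups Gabra3 was called higher in the Col12a1 group (0.59, SE 0.07, beside 6% of all genes) and lower in the Cadps2 group (−0.69, SE 0.08). Gabra4 was higher in the Col12a1 than in the Cadps2 group by 0.55 (SE 0.08, adjusted p = 3.7e-08 by edgeR) in 10 of 10 libraries, and Gabrd by 0.62 (SE 0.18, adjusted p = 0.0046 by edgeR) in 9 of 10. The Gabrd values rest on few UMIs, 3 to 77 per library in the Col12a1 group and 1 to 34 in the Cadps2 group.

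For Gabrg1 the Col12a1 value was below the Cadps2 value in 7 of 10 libraries and above it in F1, F3 and F6 (log2 fold change −0.56, SE 0.13, adjusted p = 0.00023 by edgeR). It ranged from 32.4 over 52.0 to 105.9 CPM in the Col12a1 group, from 50.6 over 70.6 to 98.9 CPM in the Cadps2 group and from 77.5 over 85.8 to 116.4 CPM in the remaining group, with overlap between all 3. It was called lower in the Col12a1 group (−0.88, SE 0.11, adjusted p = 8.1e-10 by edgeR, beside 5.76% of all genes; −0.46 and adjusted p = 0.078 in the female libraries alone), where it was below the plain mean of the other groups in 8 of 10 libraries. In the Npsr1 group Gabrg1 was at 135.7 CPM in M3 and 98.1 CPM in M4, from 71 and 39 UMIs, and was called higher (0.78, SE 0.18, adjusted p = 0.0031 by edgeR, beside 1.8% of all genes) on these 2 libraries; without M3 the value was 0.31 (adjusted p = 0.91 by edgeR). Gabrg3 was at 1087.3 and 1310.8 CPM in the same 2 sums and did not pass the fold threshold (0.44, SE 0.10).

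**Figure D5:**
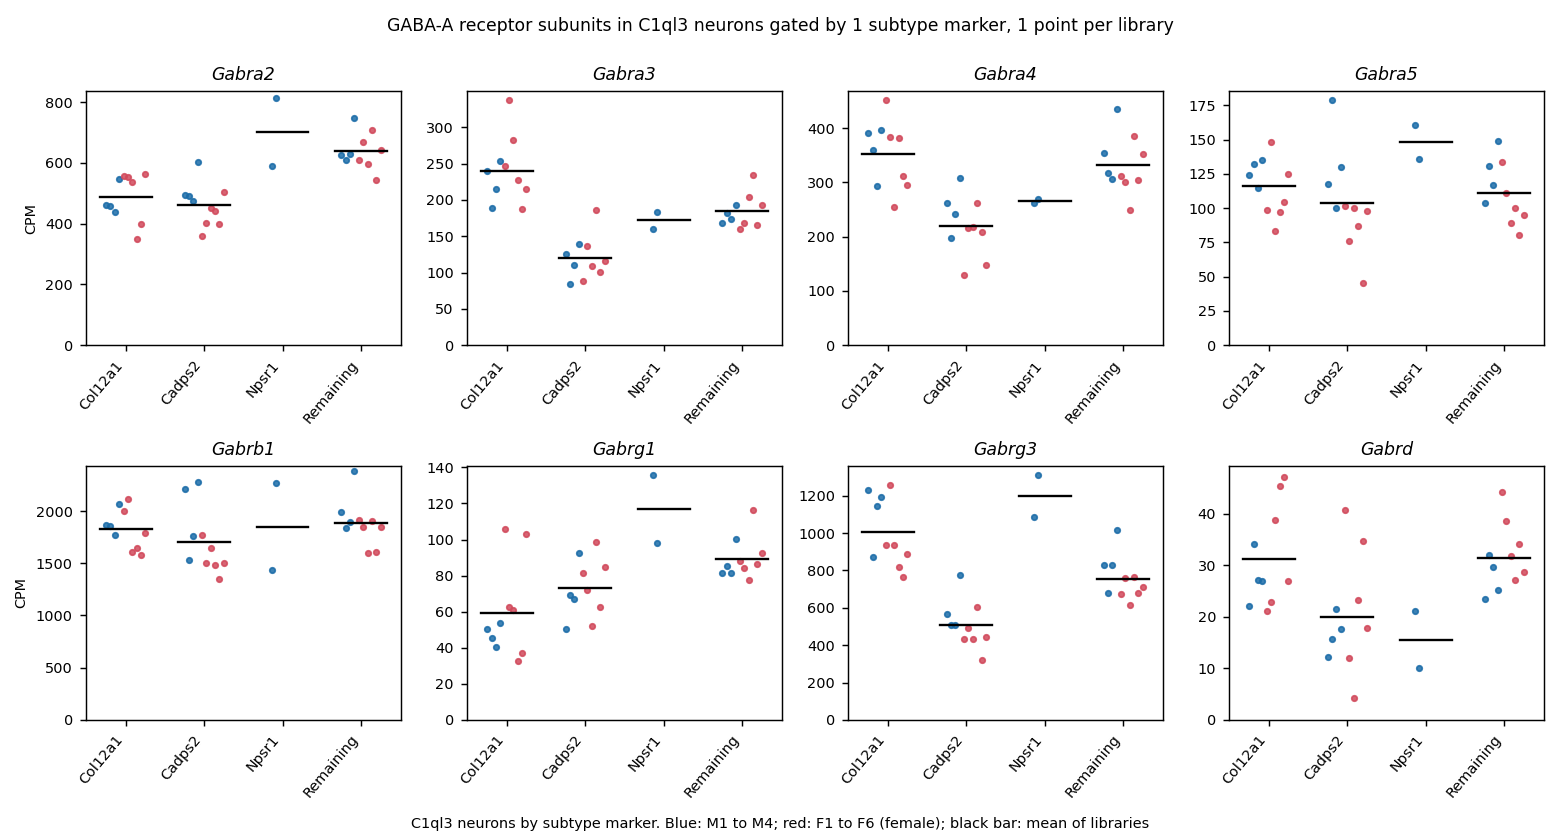
Level of each subunit gene in C1ql3 neurons gated by 1 of 3 subtype markers and in those positive for none. Each point is 1 library (CPM, linear axis from 0, blue for M1 to M4, red for F1 to F6) and the bar is the mean. Gabra3 and Gabrg3 are higher in the Col12a1 than in the Cadps2 group in every library. The Gabrb1 means of the 4 groups lie from 1704.9 to 1883.5 CPM, with 2 libraries in the Npsr1 group at 1433.2 and 2269.5 CPM.

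Gabra2, Gabra5 and Gabrb1 did not differ past the threshold between the Col12a1 and Cadps2 groups, with log2 fold changes of 0.02 (SE 0.07), 0.15 (SE 0.10) and 0.09 (SE 0.06) and adjusted p of 0.90, 0.27 and 0.25 by edgeR. Gabrb1 had means of 1828.4 CPM in the Col12a1, 1704.9 in the Cadps2, 1851.3 in the Npsr1 and 1883.5 in the remaining group. The Npsr1 mean rests on 2 libraries, M3 at 1433.2 and M4 at 2269.5 CPM. Gabra2 was lower in both the Col12a1 and the Cadps2 group than in the remaining group, by log2 fold changes of −0.42 (SE 0.06) and −0.43 (SE 0.06), differences below the fold threshold. Of the 24 pairs of neighbours in the order of levels, 8 differed at an adjusted p under 0.05.

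The titles give 1 difference between samples beyond their numbering, the word female in those of F1 to F6. The descriptions of M1 to M4 also carry names, with a prefix that M1 and M2 share and that differs in M3 and in M4. What these names stand for is not stated. In neurons as a whole 1 subunit, Gabrd, was called higher in the female libraries, beside 2.94% of the 14101 genes tested. It was at 24.2 CPM in M1, 34.0 in M2, 34.1 in M3 and 30.3 in M4, and in F1 to F6 at 39.0 to 55.3 CPM, so that the 2 sets did not overlap. These CPM were scaled apart from those of the cell type comparison, where the same neuron sums gave 32.0 to 69.6 CPM. The values within marker groups given below were scaled apart as well. The log2 fold change of the female over the other libraries was 0.57 (SE 0.14, adjusted p = 0.036 by edgeR). The call was lost without any 1 of M1, M3, M4, F2, F4 or F5, with log2 fold changes of 0.47 to 0.63 and adjusted p of 0.055 to 0.093 by edgeR. Within the Adarb2 group Gabrd was at 91.9 ± 25.1 CPM in M1 to M4 and 128.2 ± 25.7 CPM in F1 to F6, and within the C1ql3 group at 24.1 ± 3.6 and 30.5 ± 5.2 CPM. Adarb2 nuclei, the group of highest Gabrd level, made up a median of 12.3% of neurons in M1 to M4 and 13.5% in F1 to F6, but the gate is set relative to each library's mean. Adarb2 itself was at 297.1 ± 22.6 CPM in the neuron sums of M1 to M4 and 466.3 ± 93.6 CPM in those of F1 to F6. Of 23 markers of the other cell types, 18 had a higher mean in the female neuron sums, 3 of them without overlap, and none was at 0 in all libraries. The share of all genes with such differences was not computed, so these counts cannot be set against it. Their summed level was 387.4 to 539.6 CPM (of all UMIs in a sum) in M1 to M4 and 471.1 to 571.1 CPM in F1 to F6. The part of Adarb2 neurons and of other cells in the Gabrd difference was not tested. The other 7 subunits were not called, and sex cannot be told apart from depth or from the set of counted genes: of genes with over 1000 UMIs in 1 set, 460 had 0 UMIs in F1 to F6 and 141 had 0 in M1 to M4. No interaction of library set with cell type passed the threshold for a subunit (0 of 56 interaction tests at an adjusted p under 0.05 by edgeR, lowest 0.31, with 5 at an unadjusted p under 0.05) and neither did one with regional group (0 of 32, lowest 0.63, with 0 at an unadjusted p under 0.05).

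Over 98 sums of 7 non-neuronal types and 4 regional neuron groups, the genes outside the GABA lists whose log2 CPM followed each subunit most closely were found among 12586 genes by Pearson's r. For Gabra2 these were Fgf14 (0.90) and Negr1 (0.89), for Gabra4 Grin2b and Cit (both 0.88), for Gabra3 Cntn4 and Gm20754 (both 0.88) and for Gabra5 Ntng1 (0.85) and Cacng3 (0.84). For Gabrb1 they were Adgrb3 (0.90) and Rorb (0.89), for Gabrg1 Pcdh10 (0.84) and Luzp2 (0.83), for Gabrg3 Zfp804a (0.88) and Shisa9 (0.87), and for Gabrd Ptpn3 and Gm35696 (both 0.79). Sums of 1 library share its depth and animals, and the values are a description of these sums.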

How the data were processed

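The authors made the counts: 10x Genomics 3' reads were mapped and counted with Cell Ranger (6.1.1 and mm10 in the submitters' processing notes; the methods name another version), and they removed nuclei with fewer than 200 genes or over 5% mitochondrial UMIs, along with clusters judged to be doublets or low in quality. Raw UMI counts were deposited in 1 matrix, whose sums equal the deposited UMI totals in 20503 nuclei, and the percent of mitochondrial UMIs per nucleus was computed by the authors. The sources used here do not give the annotation. Cell types came from the deposited metadata, library sets from the sample titles, and 21 metadata columns were not used.

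A nucleus was positive for Adarb2, Gad2, Nwd2 or a subtype marker with at least 2 UMIs and at least 2 times the mean share of UMIs over that library's neurons (for subtypes, its C1ql3 group), and for C1ql3 with at least 2 UMIs and a share above the mean. Sums of at least 10 nuclei were tested in R 4.3.3 with edgeR 4.0.16 (filterByExpr, TMM, quasi-likelihood), with library as a block except between library sets, where genes with 0 UMIs in either set were left out. Adjusted p-values without a named tool are edgeR's. Where library was a block, they rest on the spread left after mean differences between libraries are removed. Between library sets they rest on the spread between libraries, which held 5119927 to 55956635 UMIs. The tests were also run on simulated counts, drawn from a mean profile shared by all sums, with the same dispersion for every gene and no library effect. The real sums differ in these respects, so that run does not check the tests under the spread of these data. Alternatives were DESeq2 1.42.0, no count filter, each library left out, nuclei called doublets by Scrublet in scanpy 1.11.5 left out (198 nuclei, 0.966%), nuclei under 1% mitochondrial UMIs, 1 library set alone, no library block, neuronal RNA left out, other marker rules, clusters, and other thinning. The authors' clusters, and leaving out a graph cluster with over 90% of its nuclei from 1 library, were chosen after seeing the data.

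The subunits and gene lists were chosen with earlier results of these data known. Named genes were the 8 subunits in every comparison, at most 4 called genes of largest change in each GABA list, and the 2 genes most correlated with each subunit. Group markers, Gphn, Slc12a2 and the genes of the closing observations were named outside that rule. Some genes of the lists and markers are not reported here.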

Additional observations from a re-analysis of the deposited data

Results flagged for a closer look

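Of 200 groups of 4 or more libraries of 1 set, 9 held a library far from the others by Dixon's ratio; chance alone flags about 1 in 20 groups. In M4, the library with the most nuclei, Gabra5 was at 178.2 CPM in neurons (118.4 to 128.5 CPM in M1 to M3), Gabrg1 at 117.1 CPM in neurons (82.8 to 87.1), Gabra3 at 193.2 CPM in the C1ql3 group (162.7 to 165.3), Gabra2 at 603.6 CPM in the Cadps2 group (476.1 to 493.9) and Gabra2 at 746.2 CPM in the remaining C1ql3 group (608.8 to 630.0). In F2, Gabrg3 was at 1256.3 CPM in the Col12a1 group (766.8 to 938.8 CPM in the other female libraries) and Gabra5 at 67.2 CPM in microglia (0 to 15.7). In F3, Gabrg1 was at 35.7 CPM in oligodendrocytes (13.2 to 20.4). In F1, Gabra2 was at 63.0 CPM in endothelial cells, where the other 3 female libraries with a sum were at 0.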

How the results depend on the processing

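Of the 65 subunit calls, 33 between cell types, 26 between regional groups, 5 between subtypes and 1 between library sets, 12, 15, 3 and 0 held under every alternative. With nuclei under 1% mitochondrial UMIs 18 calls between cell types were made, with 1 UMI of exactly 1 marker 16 between regional groups, and with graph clusters 12 between subtypes. Leaving out each library gave 31 to 35, 25 to 27, 5 to 6 and 0 to 1 calls, and 9 to 14, 10 to 13 and 6 to 9 differing pairs of neighbours. Neighbouring regional groups differed in 19 pairs with the authors' clusters, and neighbouring subtypes in 18 with graph clusters, 4 in the female libraries alone (of 11 pairs) and 3 with no replicate block. Without the library block the call counts were 27, 25 and 6. The replicate number as a block in the comparison of library sets, where numbers only name libraries, gave 0 calls (Gabrd 0.56, adjusted p = 0.17 by edgeR), as did no count filter (0.52, adjusted p = 0.059), while DESeq2 gave 1 (0.57).

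Directions turned when non-neuronal nuclei with a neuronal UMI were left out, for Gabrg3 (0.81) and Gabra5 (0.037) in astrocytes, Gabra2 (0.22), Gabra4 (0.72) and Gabra5 (0.30) in oligodendrocytes and Gabra2 (0.11) and Gabra4 (0.42) in microglia. They also turned for Gabrg3 in the C1ql3 group with 1 UMI of exactly 1 marker (−0.19), and for Gabra4 in the Gad2 group with graph clusters (−0.84) and the authors' clusters (−0.64). The causes were not tested. DESeq2's size factors moved the median log2 fold change of all genes in neurons from 0.16 to −0.07, and the share of calls that were higher from 59.8% to 44.8%, from 43.1% to 55.0% in endothelial cells and from 48.4% to 67.8% in fibroblasts. Shares of nuclei with a UMI followed depth: thinned to 1000 UMIs they were 80.5% for Gabrb1 and 16.1% for Gabrg1 in astrocytes and 8.9% for Gabrd in the Adarb2 group, and without thinning 37.8% for Gabrg1 and 57.8% for Gabrd.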

Other observations

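Within the PVT gate, other genes of GABA signalling differed between subtype groups. Kctd8, an auxiliary subunit of the GABA-B receptor, was at 140.4 ± 42.2 CPM in the Col12a1 group, 301.8 ± 107.3 CPM in the Cadps2 group and 335.7 ± 64.4 CPM in the remaining group (n = 10 libraries each). It was called lower in the Col12a1 group (log2 fold change −1.53, SE 0.10, adjusted p = 2.5e-22 by edgeR). Gabbr2, the GABA-B subunit that couples to G proteins, was at 660.3 ± 94.9 CPM in the Col12a1 group and 360.7 ± 87.9 CPM in the Cadps2 group, and was called higher in the first (0.51, SE 0.06) and lower in the second (−0.66, SE 0.06). Shisa7, which encodes an auxiliary protein of GABA-A receptors, was at 5.5 ± 4.2 CPM in the Cadps2 group and 24.6 ± 6.6 CPM in the Col12a1 group (called lower in the first, −1.97, SE 0.28).

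The GABA-B auxiliary subunit genes Kctd16 and Kctd8 were called in opposite directions in the Adarb2 and Nwd2 groups, and Kctd12 did not pass the count filter there. Kctd16 was at 864.2 ± 99.7 CPM in the Adarb2 group, 205.7 ± 29.2 CPM in the C1ql3 group and 31.5 ± 12.5 CPM in the Nwd2 group. Kctd8 was at 226.4 ± 62.1, 290.0 ± 52.6 and 2526.6 ± 761.8 CPM in the same groups, and the Nwd2 libraries, at 1678.8 CPM or more, did not overlap any other group. Plcl1, which encodes a protein that binds GABA-A receptor beta subunits, was at 1205.2 ± 398.6 CPM in the Nwd2 group, where Gabrb1 was at 206.3 ± 124.6 CPM, and at 81.9 ± 14.9 CPM in the C1ql3 group.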
